A study of Mus musculus with 2 samples.

Results

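The interferon receptors and their kinases were measured in mouse dendritic cells, the cells that present antigen to T cells, as 9 genes: the ligand gene Ifnb1, the receptor genes Ifnar1, Ifnar2, Ifngr1 and Ifngr2, and the Janus kinase genes Jak1, Jak2, Jak3 and Tyk2. They were found by Entrez Gene number among 18090 gene IDs, and each of the 9 was paired with its symbol in RefSeq. All 9 were listed in the immature library and 8 in the mature library. The immature library came from C57BL/6 bone marrow grown for 6 days in medium holding 10 ng/ml GM-CSF and 1 ng/ml IL-4, cytokines that drive marrow precursors towards dendritic cells. The library labelled mature is read as the sample that received LPS, a bacterial cell wall component, at 100 ng/ml for 24 h in the same cytokines. Cells of either state were sorted by their surface CD86 and I-Ab, with gates not given in the sources used here, and whether the untreated cells were cultured for the added time is not given either. The number of mice behind each library is not given. There was 1 library per state, so no test was made and each difference is between these libraries.

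Interferon beta, the product of Ifnb1, is a type I interferon and binds the receptor made of Ifnar1 and Ifnar2, whereas interferon gamma binds the receptor made of Ifngr1 and Ifngr2. The receptors carry no kinase of their own. Tyk2 is bound to Ifnar1 and Jak1 to Ifnar2, Jak1 is bound to Ifngr1 and Jak2 to Ifngr2, and the kinases phosphorylate STAT transcription factors once a ligand joins the chains. Jak3 serves receptors built on the common gamma chain and no interferon receptor. In cells that sense LPS, transcription of Ifnb1 is known as an early and brief event.

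The immature library held 7.56 M uniquely placed reads and the mature library 8.07 M. Genes of the dendritic cell lineage were present in both: H2-Aa, a class II chain, was at 1159 RPKM in immature and 1260.4 RPKM in mature cells (RPKM is reads for each kilobase of the gene and each 1000000 reads of the library), and Itgax, which encodes CD11c, at 407 and 148 RPKM. Flt3, a receptor of dendritic cell precursors, was near the bottom of the range at 0.722 and 3.28 RPKM, and Cd209a had 65 reads in immature cells and 0 in mature cells. Of 12 dendritic cell markers in all, 6 were at least 2-fold higher after maturation and 2 were lower. The list holds genes of the proteins used for sorting: H2-Aa and H2-Ab1 for I-Ab, and Cd86, which is among the higher ones. Their levels are therefore not independent of the sort. Markers of neutrophils were high in the immature library: their summed level over 12 genes was 7813 RPKM there and 1632 RPKM in the mature library, with 10 of 12 at least 2-fold lower and 0 higher. For 12 macrophage and monocyte markers the sums were 1328 and 688 RPKM, with 6 of 11 compared lower and 0 higher. For 9 markers of mast cells, basophils and eosinophils they were 204 and 11.2 RPKM, with 6 of 7 compared lower and Fcer1a and Ms4a2 not listed in either file. Among all genes compared, 9.05% were at least 2-fold higher and 11.3% at least 2-fold lower. In such bulk libraries fewer cells of a type and less RNA per cell cannot be told apart, and the part of these cells in the results below was not tested.

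The regions just upstream of 4 of the genes are shown, chosen by their values: Ifnb1 was at the edge of detection, Ifngr1 and Ifngr2 encode chains of 1 receptor and differed in opposite directions, and Jak2 was the most abundant and had the highest ratio. Each is the 250 bases before the annotated start, 5′ to 3′ along the gene, from RefSeq on GRCm38.p6, a build other than that of the files. Capitals mark every match, on either strand, to AANNGAAA (the core bound by interferon regulatory factors), TTCNNNGAA (the site form bound by STAT dimers) or GGGNNNNNCC (a loose form of the NF-kB site).
Ifnb1, chr4:88522795-88523044, minus strand: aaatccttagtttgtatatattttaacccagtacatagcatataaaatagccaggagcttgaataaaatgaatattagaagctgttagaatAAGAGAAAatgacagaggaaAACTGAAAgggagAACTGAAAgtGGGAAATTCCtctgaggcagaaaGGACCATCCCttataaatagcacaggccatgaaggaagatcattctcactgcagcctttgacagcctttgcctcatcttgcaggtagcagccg
Ifngr1, chr10:19591699-19591948, plus strand: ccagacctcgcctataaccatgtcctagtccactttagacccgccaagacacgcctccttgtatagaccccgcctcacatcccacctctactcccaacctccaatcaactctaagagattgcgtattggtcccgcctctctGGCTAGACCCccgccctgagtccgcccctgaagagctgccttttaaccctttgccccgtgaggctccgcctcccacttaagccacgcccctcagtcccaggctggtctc
Ifngr2, chr16:91546809-91547058, plus strand: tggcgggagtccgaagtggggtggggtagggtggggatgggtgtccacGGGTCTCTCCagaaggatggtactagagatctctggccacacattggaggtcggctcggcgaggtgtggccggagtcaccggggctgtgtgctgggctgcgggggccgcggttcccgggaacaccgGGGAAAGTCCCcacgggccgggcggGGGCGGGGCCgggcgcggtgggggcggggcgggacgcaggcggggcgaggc
Jak2, chr19:29251553-29251802, plus strand: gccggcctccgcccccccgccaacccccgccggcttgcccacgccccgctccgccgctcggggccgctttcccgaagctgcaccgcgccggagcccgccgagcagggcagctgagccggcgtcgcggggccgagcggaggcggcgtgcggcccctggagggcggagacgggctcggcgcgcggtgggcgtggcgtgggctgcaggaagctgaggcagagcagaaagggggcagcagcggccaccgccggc

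AANNGAAA occurred 3 times upstream of Ifnb1 and in none of the other 8 members, against 21.3% of 32851 upstream regions of the same length. Next to the Ifnb1 matches lay GGGAAATTCC, from -116 to -107 relative to the start. These letters belong to the known virus-inducible enhancer of the gene. GGGNNNNNCC was found in 5 of the 9 members and in 45.8% of all regions. Ifngr2 had 4 such matches, 2 of them overlapping in GGGAAAGTCCC, while Ifngr1 had 1, and Ifnar1, Ifnar2, Jak2 and Jak3 had none. The share of G and C was 74% upstream of Ifngr2, 59.2% upstream of Ifngr1 and 80.8% upstream of Jak2. The number of matches per region was not compared with that of other regions. TTCNNNGAA occurred only upstream of Ifnar2 among the members, and in 7.02% of all regions. A match says that these letters are there and not that a factor bound them.

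Ifnb1 (Entrez Gene 15977), the ligand gene, was at the limit of detection in both states. It had 1 read in immature cells, a level of 0.172 RPKM, and 0 reads in mature cells, which allows a level of up to 0.483 RPKM at 3 reads, while the two-sided Poisson interval given for the other levels reaches 0.593 RPKM. No fold is given for it. The other interferon genes were as low: of 21 interferon genes in all, 3 had a read in either library. Ifng, the gene of interferon gamma, had 4 reads before and 5 after maturation, and Ifnk, of an epithelial type I interferon, 2 and 1. The 18 others, among them 13 Ifna genes, were not listed in either file. The Ifna genes are near-identical copies, so a count of uniquely placed reads can miss them. At this depth no interferon transcript was detected at more than 5 reads 24 h after LPS.

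The remaining 8 genes were well covered, with 233 to 12895 reads per library over 79.6% to 98.53% of each gene model. Of these 8 genes, 2 (Jak2 and Jak3) were 2-fold or more higher after maturation on the log2(RPKM + 1) scale, as were 9.05% of the 11547 genes that reached 1 RPKM in either library. None was at least 2-fold lower, against 11.3% of all genes, and 6 lay within 2-fold. The median log2 difference was 0.48 over the 8 genes and 0.026 over all genes compared. The counting interval of the ratio lay above 1 for 6 genes (36.1% of all genes) and below 1 for 2 genes, Ifngr1 and Tyk2 (33.8% of all genes). These intervals scale the reads by the library totals. None was computed under another scaling, where the log2 fold of Tyk2 came as close to 0 as -0.041. All intervals given are exact 95% intervals for counting error only; the reads carry no molecular identifiers, so they may repeat a molecule, and the error between cultures is unknown.

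**Figure D1:**
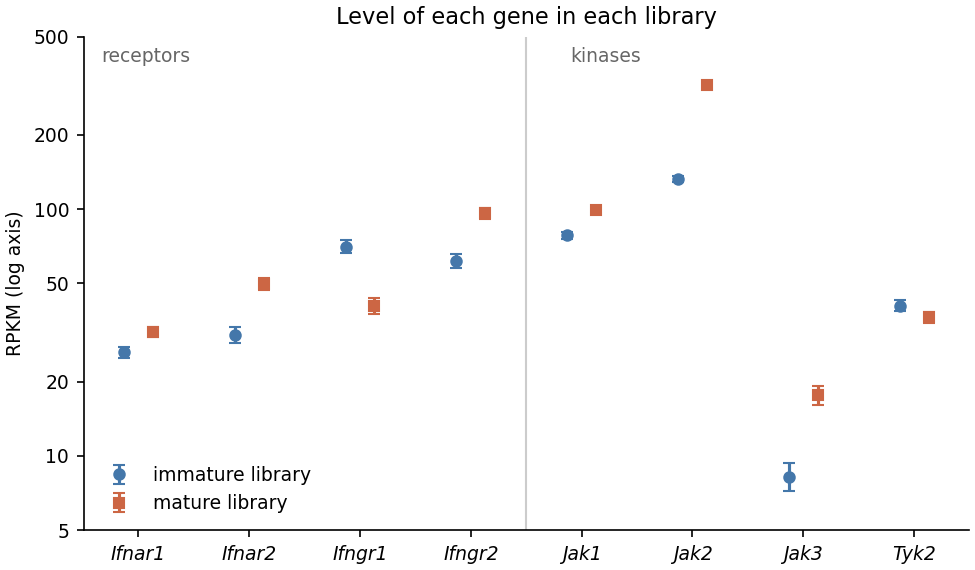
Level of the 4 receptor and 4 kinase genes in RPKM (log axis) in the immature (circles) and mature (squares) library, 1 library each, with exact 95% Poisson intervals of the reads. Jak2 is highest in both libraries, and Ifngr1 and Tyk2 are the genes whose mature value lies below the immature value; Ifnb1, at 0.172 and 0 RPKM, is not drawn.

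The type I interferon receptor was present in both states, with each chain higher in the mature library. Ifnar1 (15975), the chain that carries Tyk2, had 1398 reads (26.3 RPKM) in immature cells and 1798 reads (31.7 RPKM) in mature cells. The mature level was 1.20-fold the immature one (1.12 to 1.29), and 63.1% of all compared genes had a lower log2 fold. Ifnar2 (15976), the chain that carries Jak1 and binds ligand most tightly, went from 712 reads and 30.9 RPKM to 1231 reads and 49.97 RPKM. That is a ratio of 1.62 (1.48 to 1.78). Ifnar2 also yields soluble forms, which a count per gene does not separate. Per length, the level of Ifnar1 was 0.853 of that of Ifnar2 (0.779 to 0.935) in immature cells and 0.634 (0.590 to 0.683) in mature cells, a change of the ratio of 0.744 (0.661 to 0.837). Which chain was higher depends on the gene model. That of Ifnar1 is 7025 bases long, against 3909 for its longest coding transcript in GENCODE M21, and at the transcript lengths Ifnar1 was 1.53 times the level of Ifnar2 (1.40 to 1.68) in immature and 1.14 times (1.06 to 1.23) in mature cells. The change of the ratio between libraries is the same with either length. Of the Ifnar2 exon bases in GENCODE M21, 9.46% are shared with Gm21970 on the same strand.

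The chains of the interferon gamma receptor differed in opposite directions. Ifngr1 (15979), which binds interferon gamma and carries Jak1, stood at 1119 reads and 70.5 RPKM in immature cells and at 685 reads and 40.4 RPKM in mature cells. It was 1.74-fold lower in the mature library (1.58 to 1.92), the lowest ratio of the 8 genes, with 15.8% of all compared genes at a still lower log2 fold. Ifngr2 (15980), the signalling chain that carries Jak2, went from 968 reads and 61.8 RPKM to 1606 reads and 96.1 RPKM, a ratio of 1.55 (1.43 to 1.69). The pair thus crossed. Per length, Ifngr1 was 1.14 times the level of Ifngr2 (1.05 to 1.24) in the immature library and 0.421 times (0.384 to 0.460) in the mature library. The ratio of the chains was 2.71-fold lower in the mature library (2.39 to 3.07), a comparison within libraries that does not depend on how they are scaled. The model of Ifngr2 has 2070 bases, against 3708 for its longest coding transcript in GENCODE M21, and at the transcript lengths the ratio of Ifngr1 to Ifngr2 was 2.03 (1.86 to 2.21) and 0.749 (0.684 to 0.819), on the same sides of 1. Neither gene reached 2-fold, and neither shares an exon with another gene in GENCODE M21. The neutrophil, macrophage and granulocyte markers listed above were lower in the mature library together with Ifngr1, and their part in it was not tested.

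**Figure D2:**
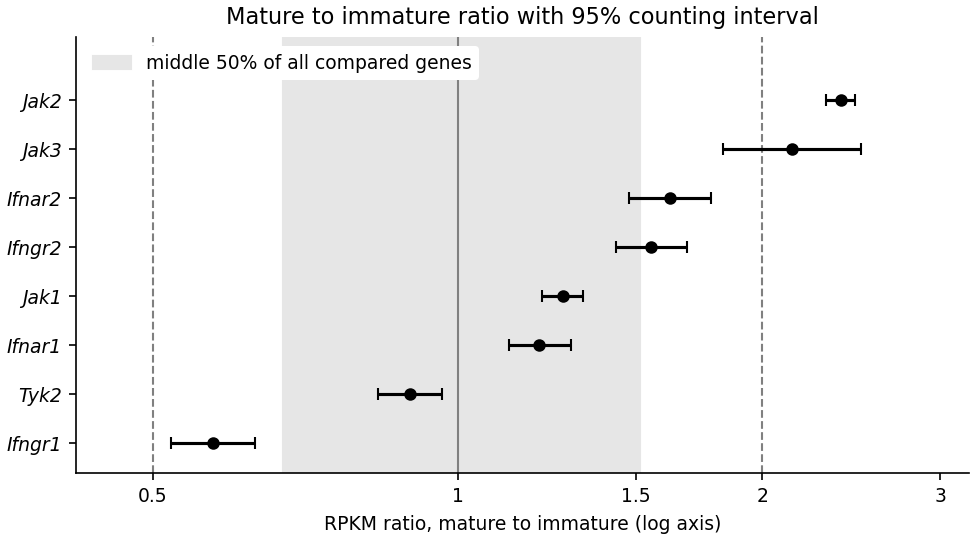
Ratio of mature to immature RPKM (log axis) for the 8 genes with its exact 95% counting interval; dashed lines mark 2-fold either way and the grey band holds the middle 50% of all compared genes, 0.672 to 1.51. Jak2 alone has an interval wholly beyond 2-fold, and Ifngr1 lies below the band.

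Jak2 (16452), the kinase of Ifngr2 and of the receptors of GM-CSF and interleukin-12, was the most abundant of the genes and had the highest ratio. It stood at 5051 reads and 132.8 RPKM before and at 12895 reads and 317.5 RPKM after maturation, 2.39-fold higher (2.31 to 2.47). By level it ranked 502nd among the 16573 genes listed in the immature library and 156th among the 16646 listed in the mature library. Its log2 fold was above that of 94.3% of all compared genes. Jak3 (16453), the kinase of the common gamma chain, was the least abundant kinase, with 233 reads and 8.24 RPKM in immature cells and 532 reads and 17.6 RPKM in mature cells. The ratio was 2.14 (1.83 to 2.51), and the log2(RPKM + 1) difference of 1.01 lay just past the 2-fold threshold: with a pseudocount of 5 RPKM it was 0.77, and after scaling by edgeR's TMM it was 0.98. Jak3 is best known from lymphocytes, whose markers had mostly few reads. The 11 T cell markers summed to 5.06 RPKM before and 7.57 RPKM after maturation, with Trac not listed and 0 of 4 compared genes 2-fold apart on the log2(RPKM + 1) scale. By plain ratio some of them were higher together with Jak3: Lck, a T cell kinase, had 5 and 22 reads, a ratio of 4.12 (1.52 to 13.9), and Cd3d had 5 and 16 reads, with an interval of the ratio from 1.05 to 10.5. Cd3e had 6 and 8 reads. Others went the other way: Cd247, with the most reads of the list, had 74 and 59, a ratio of 0.747 (0.521 to 1.07). Cd28 had 5 and 0 reads. The natural killer cell list summed to 5.79 and 5.54 RPKM, with 0 of 3 compared genes apart and Ncr1 at 0 and 1 reads. The B cell list summed to 10.3 and 6.43 RPKM, mostly Cd22 with 231 and 149 reads. The part of these cells in the Jak3 difference was not tested. In GENCODE M21, 7.55% of the Jak3 exon bases are shared with Insl3 on the same strand, which was not listed in either file.

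Jak1 and Tyk2, the pair that serves the type I receptor, differed little. Jak1 (16451), the kinase shared by both interferon receptors, stood at 3136 reads and 78.2 RPKM before and at 4253 reads and 99.4 RPKM after maturation, a ratio of 1.27 (1.21 to 1.33). Tyk2 (54721) stood at 1479 reads and 40.6 RPKM and at 1417 reads and 36.4 RPKM, 1.11-fold lower in the mature library (1.04 to 1.20). Of the Tyk2 exon bases, 8.07% overlap 1700084C06Rik on the opposite strand, and strandedness is not given in the sources used here. Tyk2 was the kinase closest to no difference, and its log2 fold ranged from -0.19 to -0.041 over the scalings tried.

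The make-up of the kinase family shifted towards Jak2. The summed level of the 4 kinases was 259.8 RPKM in immature and 471 RPKM in mature cells, while that of the 4 receptor genes was 189 and 218 RPKM. Jak2 held 51.1% of the kinase sum in the immature library and 67.4% in the mature one. The share of Jak1 was 30.1% and 21.1%, that of Tyk2 15.6% and 7.73%, and that of Jak3 3.17% and 3.74%. Jak2 was 1.70 times the level of Jak1 (1.62 to 1.77) in immature cells and 3.19 times (3.09 to 3.31) in mature cells. Against Tyk2 it was 3.27 times (3.09 to 3.47) and 8.72 times (8.26 to 9.22). Against Jak3 the ratio was 16.1 (14.1 to 18.5) and 18.0 (16.5 to 19.7), a change of 1.12 whose interval, 0.951 to 1.31, holds 1.

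**Figure D3:**
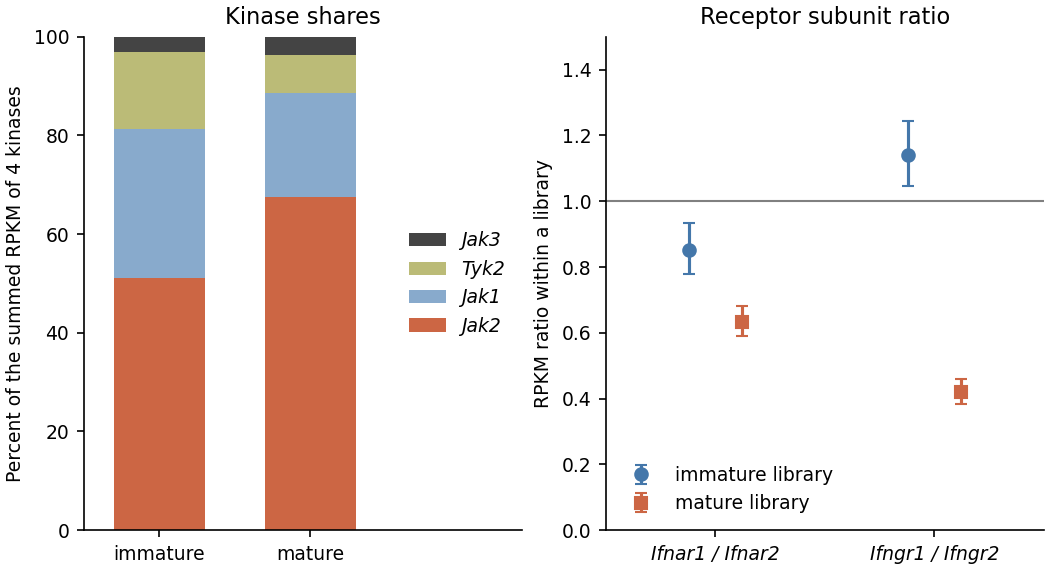
Left, percent of the summed RPKM of the 4 kinase genes held by each in the immature and mature library; right, RPKM ratio of the receptor chains within each library with exact 95% counting intervals, the line marking equal levels. The Jak2 share is 51.1% and 67.4%, and the Ifngr1 to Ifngr2 ratio goes from 1.14 to 0.421, across the line.

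Ordered by level in the immature library, the genes ran Jak2, Jak1, Ifngr1, Ifngr2, Tyk2, Ifnar2, Ifnar1, Jak3 and Ifnb1, and no neighbours in that order had overlapping counting intervals. In the mature library the order was Jak2, Jak1, Ifngr2, Ifnar2, Ifngr1, Tyk2, Ifnar1, Jak3 and Ifnb1. There the intervals of Jak1 (96.4 to 102.4 RPKM) and Ifngr2 (91.5 to 100.9 RPKM) overlapped, as did those of Ifngr1 (37.5 to 43.6 RPKM) and Tyk2 (34.5 to 38.3 RPKM). Ifngr1 thus moved from above Ifngr2 and Ifnar2 to below them. The order between genes rests on the model lengths as well as on the reads. At the transcript lengths Ifnar1, at 47.3 and 57.0 RPKM, came 4th in the immature and 3rd in the mature library, and Ifngr2, at 34.5 and 53.6 RPKM, came 6th and 4th. Jak2, Jak1 and, in the immature library, Ifngr1 stayed at the top, and Ifngr1 was again above Ifngr2 and Ifnar2 before and below them after maturation.

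**Figure D4:**
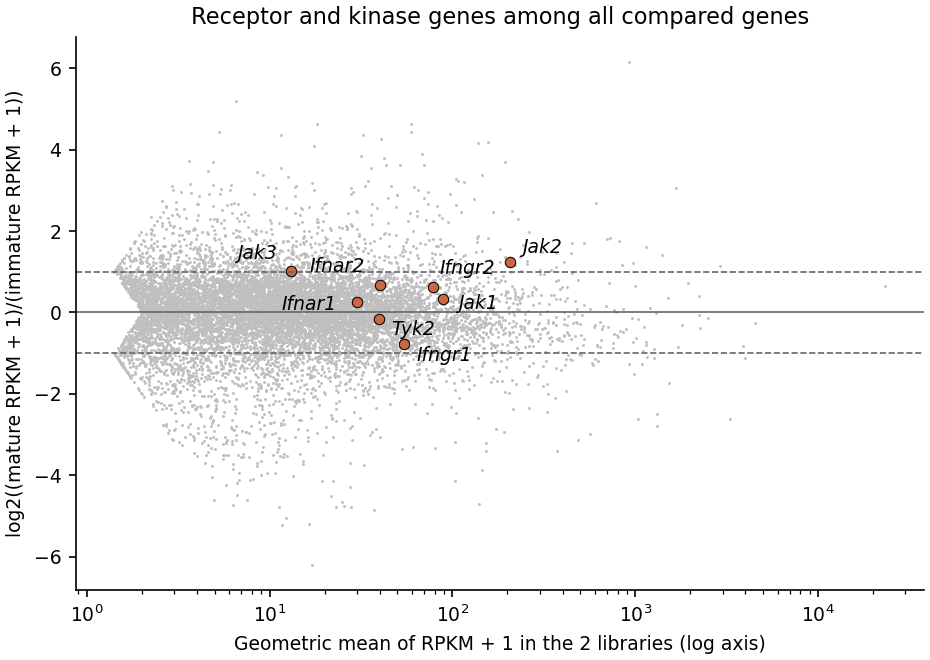
Log2 difference between mature and immature RPKM + 1 against the geometric mean level (log axis) for the 11547 compared genes (grey) and the 8 genes with names; dashed lines mark 2-fold. Jak2 lies at 1.25 among the more abundant genes, Jak3 at 1.01 on the upper line, and the other 6 genes lie between the lines.

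Downstream of the kinases, most STAT genes were higher after maturation. Of 6 STAT genes and Irf9, which joins STAT factors in type I signalling, 6 of 7 were 2-fold or more higher and 0 lower, with a median log2 difference of 1.40. Among all genes compared, 9.05% were higher and 11.3% lower. Stat2, of the type I receptor, stood at 16.7 and 60.7 RPKM, 3.63-fold higher (3.31 to 3.99), and Irf9 was 2.63-fold higher (2.29 to 3.03). Stat4, activated through Jak2 and Tyk2 by interleukin-12, had 187 and 4246 reads and a ratio of 21.3 (18.4 to 24.8). Stat5a and Stat5b, the factors of GM-CSF signalling through Jak2, were 2.96-fold (2.68 to 3.27) and 2.77-fold (2.49 to 3.09) higher. Stat3 was 2.15-fold higher (1.98 to 2.33), and Stat6, the factor of interleukin-4, lay within 2-fold at 1.41 (1.33 to 1.49).

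The regulators of the receptors and kinases were mostly within 2-fold, as were most of all genes compared. Of 30 compared, 6 were higher, 1 was lower and 23 lay within, with a median log2 difference of 0.45. Counts in this paragraph are to be read against the 9.05% of all genes higher and 11.3% lower. Cblb, a ubiquitin ligase, was 6.92-fold higher (6.05 to 7.94), Isg15, a ubiquitin-like modifier, 2.97-fold higher (2.07 to 4.36), and Sh2b2, an adaptor of Janus kinases, 2.90-fold higher (2.44 to 3.45). The lower gene was Ptpn6, which encodes the phosphatase SHP-1, at 208 and 70.2 RPKM, 2.97-fold lower (2.78 to 3.17). Genes that lead to Ifnb1 transcription were higher in 4 of 17 cases and lower in 1, with a median of 0.60. These were Irf7 (16.3-fold, 13.3 to 20.1), the LPS receptor partner Ly96 (4.74-fold, 3.30 to 6.97), the adaptor Ticam1 (3.90-fold, 3.35 to 4.56) and Cd14 (2.25-fold, 2.12 to 2.38). The lower gene was Tmem173, which encodes the DNA-sensing adaptor STING, 2.44-fold lower (2.16 to 2.76). With Ifnb1 itself at 1 and 0 reads, 20 of 37 compared genes of a type I interferon list were still at least 2-fold higher and 0 lower, with a median of 1.20. On the log2(RPKM + 1) scale Irf7 led them, followed by Oasl1 (11.1-fold by plain ratio, 8.13 to 15.4) and Herc6 (6.80-fold, 5.88 to 7.90). By plain ratio Mx2, on 15 and 152 reads, lay above Herc6 at 9.49 (5.58 to 17.4). Of the 20 higher genes, Irf7, Irf9, Stat2, Isg15 and Usp18 were also counted as higher in the lists above, so the lists overlap. Of 20 compared genes best known from interferon gamma, 11 were higher and 1 was lower, with a median of 1.12. Nos2 (26.9-fold, 24.1 to 30.1), Irf8 (9.42-fold, 8.76 to 10.1) and Gbp5 (7.12-fold, 6.03 to 8.47) were the highest, and Fcgr1, a macrophage Fc receptor, was 3.94-fold lower (3.32 to 4.70).

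Other receptors that use these kinases were counted in 3 lists, to be read against the 9.05% of all genes higher and 11.3% lower. Of 6 compared receptors of the common gamma chain family, served by Jak1 and Jak3, 3 were higher and 0 lower, with a median of 1.20. Il15ra (10.6-fold, 7.68 to 14.9), Il7r (6.56-fold, 6.06 to 7.11) and Il4ra (2.72-fold, 2.59 to 2.87) were the higher ones. Il2rg, the common gamma chain itself, was among those within 2-fold. It stood at 218 and 162 RPKM, a ratio of 0.742 (0.700 to 0.786), opposite in direction to Jak3. The 9 compared receptors served by Jak2 were centred at -0.051, with 1 higher and 1 lower. Csf2ra, the GM-CSF binding chain, stood at 219 and 43.2 RPKM, 5.06-fold lower (4.65 to 5.52), opposite to Jak2 itself. Csf2rb and Csf2rb2, other receptor genes of this list, were higher together with Jak2 but within 2-fold. Csf2rb stood at 798.12 and 1253.3 RPKM, and Csf2rb2 at 315.72 and 474.26 RPKM. Il23r was higher on 2 and 51 reads, a ratio of 23.9 (6.28 to 203). The 11 compared receptors of the interleukin-6, interleukin-10 and related families, served by Jak1 and Tyk2, had a median of -0.24, with 1 higher and 2 lower. Il6st, the shared chain gp130, was 3.87-fold higher (3.54 to 4.23), while Lifr was 3.05-fold lower (2.43 to 3.87) and Il27ra 3.74-fold lower (2.11 to 6.98). With a pseudocount or a filter of 5 RPKM, Il23r, Lifr and Il27ra were no longer called, which leaves 0 higher Jak2 receptors and 0 lower Jak1 and Tyk2 receptors; counts of 1 or 2 genes lie near the background shares. Ifnlr1, the specific chain of the type III interferon receptor, was low, at 1.12 and 1.64 RPKM, with a ratio of 1.46 (0.932 to 2.32) whose interval holds 1.

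**Figure D5:**
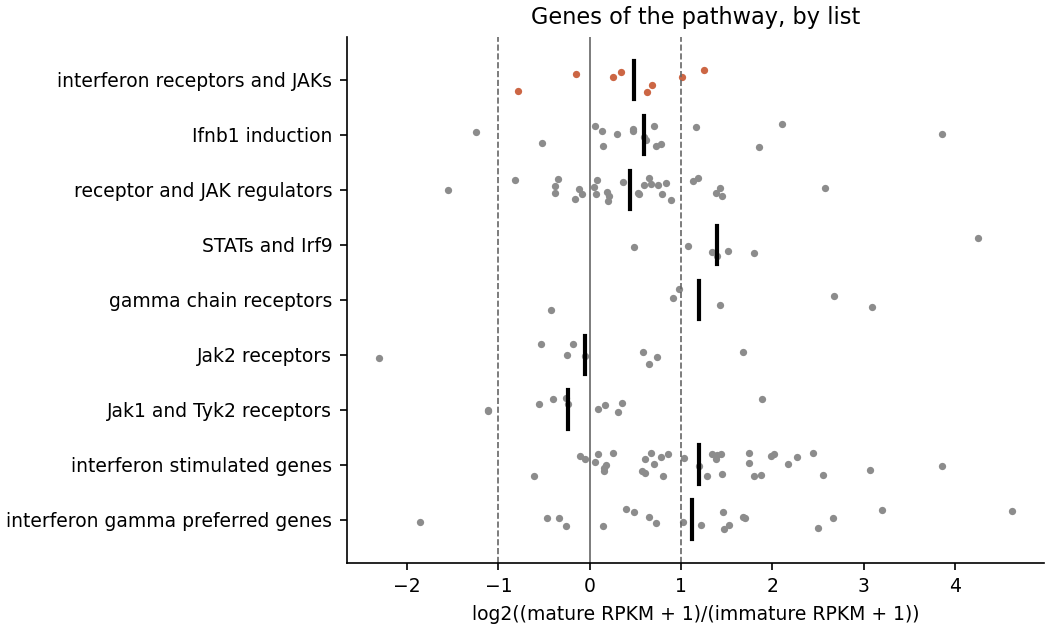
Log2 difference between mature and immature RPKM + 1 for the compared genes of each list (points, spread vertically for sight) with the median of each list (bar); dashed lines mark 2-fold. The receptor and kinase genes have a median of 0.48, the STAT genes with Irf9 1.40 and the Jak2 receptors -0.051.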

How the data were processed

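RNA-seq was available for 1 library of immature and 1 of mature bone marrow derived dendritic cells. The authors deposited, per the file headers, raw counts of uniquely placed reads per Entrez gene, the length of each gene model (in bases, an unscaled value), the percent of it covered, and RPKM. The deposited RPKM equalled reads per kilobase of model and per 1000000 reads within a relative deviation of 1.07e-07. The build mm8 comes from the submitters' processing notes; aligner, counter, annotation and strandedness: not given in the sources used here. A gene with no row in a file was taken as 0 reads. Symbols were matched for 16220 of 18090 IDs from RefSeq on GRCm38.p6. The reads without a symbol were 0.538% and 0.758% of the immature and mature libraries.

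Differences were log2((mature RPKM + 1)/(immature RPKM + 1)) for genes that reached 1 RPKM in either library, a scale that understates changes of low genes. A call is a 2-fold difference. Ratios of RPKM carry Clopper-Pearson 95% intervals on the split of a gene's reads, levels carry exact Poisson intervals, and changes of a ratio of 2 genes carry the exact conditional interval of the odds ratio (SciPy 1.17.1). Scaling alternatives used TMM from edgeR 4.0.16 and the median of ratios from DESeq2 1.42.0, with no test by either. The steps were tested on simulated data. The members and lists were chosen with earlier results of these data known. Named were all members, up to 3 genes higher and 3 lower by log2 difference from each list, and the STAT genes; 1 gene of the lists is not reported here. Ifng, Ifnk, Ifnlr1, Cd14, Mx2, Usp18, Csf2rb, Csf2rb2, Il2rg and the single marker genes were named after their values were seen.

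2 further marker lists stand beside no result: 8 plasmacytoid dendritic cell markers summed to 104 RPKM before and 197 RPKM after maturation (mostly Bst2, an interferon-stimulated gene), and 9 erythroid and megakaryocyte markers to 75.9 and 118 RPKM (mostly Pf4).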

Additional observations from a re-analysis of the deposited data

How the results depend on the processing

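With 1 library per state no replicate could be left out and no error between cultures is known. No paired analysis was possible because each state has a single library. The number of receptor and kinase genes at least 2-fold higher, 2 of 8 as reported, was 1 with a pseudocount of 5 RPKM, 1 after edgeR's TMM scaling and 1 when the whole counting interval had to lie beyond 2-fold; Jak3 is the gene that dropped out and Jak2 stayed. At a threshold of 1.5-fold it was 4, with 1 gene lower in place of 0; 21.4% and 21.7% of all genes were past that threshold upward and downward. Under the other settings (a pseudocount of 0.1 RPKM, no filter, a filter at 5 RPKM, a common sum of RPKM with or without the 50 most abundant genes, and DESeq2's median of ratios) both counts were as reported. The direction of each of the 8 genes was the same under every pseudocount, filter and scaling tried. The common sum without the 50 most abundant genes moved the median of all genes from 0.026 to 0.13. The log2 fold of Jak2 ranged from 1.21 to 1.37, that of Ifngr1 from -0.82 to -0.68, and that of Jak3 from 0.77 to 1.12. The Ifngr1 to Ifngr2 change, 0.369, is the same under each scaling by construction. With a pseudocount of 5 RPKM the type I interferon list had a median of 0.76 in place of 1.20 and the interferon gamma list 0.74 in place of 1.12. For the common gamma chain receptors 5 in place of 3 were higher under the common sum without the 50 most abundant genes. Under a filter at 5 RPKM the median of the Jak2 receptors was 0.20, on the other side of 0. The number of higher Jak2 receptors (1) and of lower Jak1 and Tyk2 receptors (2) was 0 with a pseudocount or a filter of 5 RPKM. An alternative chosen after seeing the data took the length of the longest coding transcript in place of the gene model: the Ifnar1 to Ifnar2 level was then 1.53 in place of 0.853 in immature and 1.14 in place of 0.634 in mature cells, on the other side of 1. Depth limits Ifnb1 and the other interferon genes, where 3 reads or fewer cannot be told from 0.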

Other observations

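In the RefSeq gene order, 3 of the receptor genes lie side by side with a further receptor gene: Ifnar2, Il10rb, Ifnar1 and Ifngr2 follow each other with no protein-coding gene between them. Il10rb, the chain shared by the receptors of interleukin-10 and type III interferon, stood at 45.6 RPKM before and 58.4 RPKM after maturation, a ratio of 1.28 (1.16 to 1.42). All 4 genes of the block were thus higher in the mature library, by ratios of 1.20 to 1.62, and none reached 2-fold. Their counting intervals lay above 1, as did those of 36.1% of all genes compared. The genes next to the block were taken by position. Tmem50b, a membrane protein gene beyond Ifngr2, had a ratio of 0.661 (0.603 to 0.724), and Dnajc28, after it, was higher on 7 and 43 reads with a ratio of 5.75 (2.57 to 15.2). On the other side Olig1 and Olig2, factors of the oligodendrocyte lineage, had 0 reads in either library. Ifngr1, the receptor gene with the lower mature level, lies on another chromosome.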
